A study of Mus musculus with 18 samples.

Results

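A set of 35 genes that mark or serve red pulp macrophages was followed in mouse splenic B cell preparations. The genes were chosen by their naive and CpG read counts, as macrophage genes present in freshly collected samples and nearly absent after culture with CpG, so that contrast is given here as a description with no test. Of the 35 genes, 33 were found by name in both allele tables of every sample, out of 28374 genes matched in this way, and 32 of the 33 had at least 1 read in the naive samples. Itgad was present by name only in the Cast table, and Lyz2 was found by name in neither.

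The samples were CD23+ B cells from the spleens of female F1 129S1/Cast mice, the offspring of a 129S1/SvImJ by CAST/EiJ cross, all of them Xist+/-. Per the labels, inactivation in these animals always falls on the Cast X chromosome. The naive group (3 samples) had no treatment, and the CpG group (3 samples) was cultured with 1 uM CpG, a DNA ligand of the receptor TLR9, for 24 h. RNA of both alleles was read in each sample, and reads that could be placed on 1 parental strain were counted separately for 129 and Cast. Nothing in the labels states that replicates came from separate animals, so p-values measure the spread between these samples.

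Red pulp macrophages are resident phagocytes of the spleen that take up aged red blood cells, break down their heme and return the iron to the blood. Their identity depends on the transcription factor SpiC and on signalling through the CSF1 receptor. They also clear dying cells and bacteria through complement, scavenger receptors and receptors for phosphatidylserine.

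Gene reads of both alleles together came to 4452339 to 5075323 in the naive samples and to 5931418 to 6249989 in the CpG samples, and levels are given as counts per 1000000 of that total (CPM). The B cell list was well detected. Its 9 matched genes of 10 summed to 7548, 9412 and 7437 CPM in naive replicates 1, 2 and 3 and to 2661 to 3120 CPM after CpG. Fcer2a, which encodes the CD23 protein used to select the cells, stood at 321, 625 and 358 CPM in the naive samples and at 15.5 to 19.1 CPM after CpG.

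Together the 33 matched macrophage genes held 11286, 5810.1 and 7277 CPM in naive replicates 1, 2 and 3, a mean of 8124 ± 2834 CPM (SD, n = 3). After CpG they held 267, 292 and 265 CPM, a mean of 275 ± 15.1 CPM (SD, n = 3). The ratio of the means was 29.6, and the lowest naive sample was far above the highest CpG sample. As a share of all gene reads the set made up 1.13%, 0.581% and 0.728% in the naive samples and 0.0265% to 0.0292% after CpG. In bulk samples the cell type that a read came from is not known. Fewer macrophages, less RNA per macrophage and a change in the reads that other cells add to the set or to the total cannot be told apart. The effect of CpG and that of 24 h in culture cannot be told apart either. The summed level of the B cell list was lower after CpG as well, with a ratio of the means of 2.88.

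The groups did not overlap for any of the 32 matched genes with naive reads, each of them lower after CpG, against 37.9% of all genes in the fit. Since this contrast chose the genes, nothing is read from that count. What remained after CpG differed widely among the genes, as shown in the plot of their levels in every sample. At most 3 reads were left in every CpG library for 18 of these 32 genes. Among the 27 genes with a mean of at least 100 naive reads, 14 were at or under that floor in every CpG library, against 1.08% of the 6216 genes with as many naive reads. Since near absence after CpG was part of the choice, nothing is read from this count either. Ctsb, Mpeg1 and Hmox1 alone supplied 90.8% to 92.7% of the set's reads after CpG, and 30.9% to 33.97% of them in the naive samples.

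**Figure D1:**
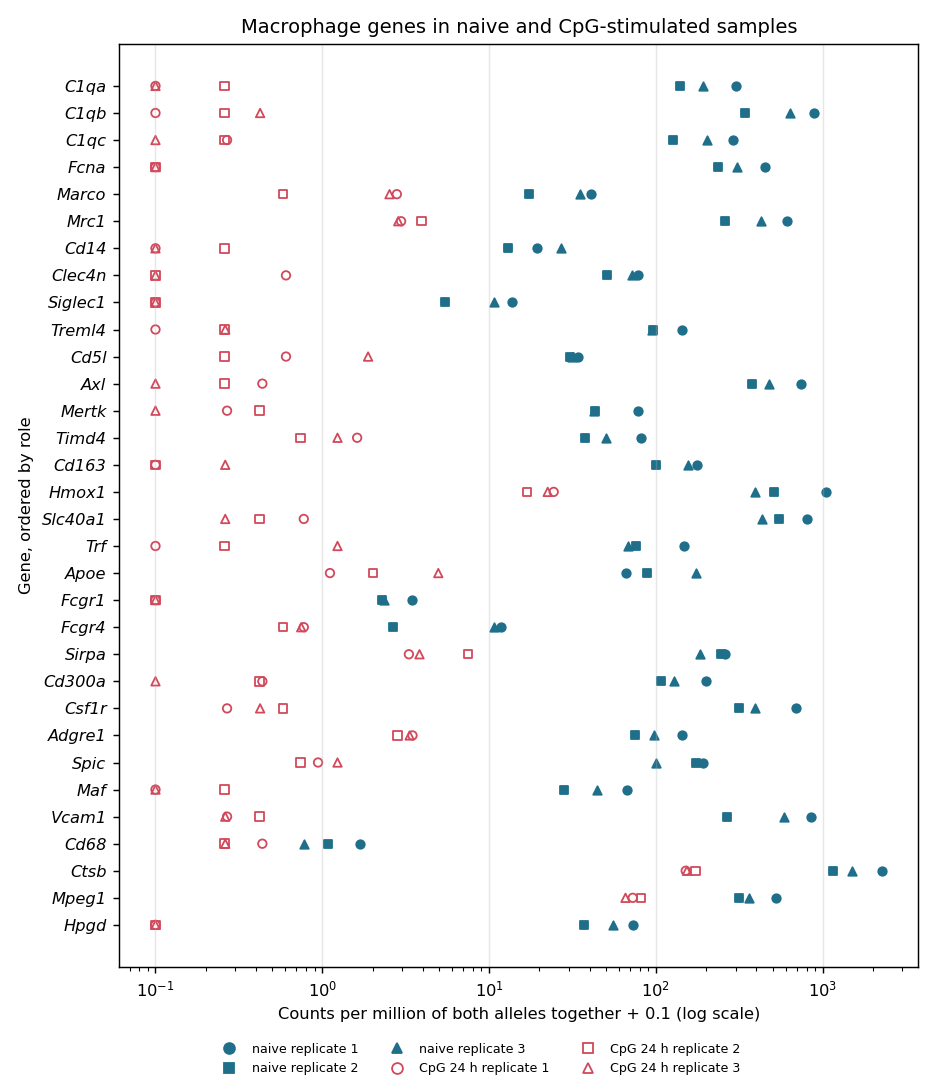
Level of each of the 32 macrophage genes with naive reads, in CPM of both alleles plus 0.1 on a log axis, 1 point per sample, filled for the 3 naive and open for the 3 CpG samples. The naive points lie to the right of the CpG points in every row, and only Ctsb, Mpeg1 and Hmox1 stay above 10 CPM after CpG.

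The complement genes had almost no reads left after CpG. C1qa, C1qb and C1qc encode the chains of C1q, which binds immune complexes and dying cells, and lie side by side on chromosome 4. C1qb was at 886, 341 and 640.1 CPM in naive replicates 1, 2 and 3 and at 0, 0.16 and 0.324 CPM after CpG, which is 3 reads in all 3 CpG libraries together. C1qa was at 301, 139 and 192 CPM in the naive samples, with 1 read left over the CpG libraries. C1qc was at 290.2, 127 and 201 CPM, with 2 reads left. Set against a floor of 3 reads in each library, C1qb was at least 1269-fold lower, C1qa at least 429.5-fold lower and C1qc at least 420.1-fold lower. All 3 C1q genes kept the same order of naive samples, with replicate 1 highest and replicate 2 lowest. Fcna, on chromosome 2, encodes ficolin A, a lectin that starts the complement cascade on sugar surfaces. It was at 452, 235 and 306 CPM in the naive samples and had no read in any CpG library, a level at least 675-fold lower.

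Promoter sequences were read for 21 of the 35 genes from RefSeq on GRCm38.p6, from 250 bases before to 50 after the start of the gene. The letters GAGGAA, a motif of the Ets factor PU.1, were searched on both strands together with the MAF motif TGCTGA and the C/EBP palindrome TTGCGCAA. GAGGAA or its reverse complement was found in 15 of the 21 promoters (71.4%), against 28.3% of the 27025 genes in the same table. TGCTGA was found in 7 of the 21 (33.3%, against 19.1%), and TTGCGCAA in none (against 0.185% of all). A match describes letters in the window and no binding was measured. The promoters of C1qb, C1qc, Fcna and Axl are printed because these genes had a match, a mean of 1002 to 3018 naive reads and at most 2 reads in any CpG library, a choice made after their values were seen. Capitals mark GAGGAA, or TTCCTC where the match is on the opposite strand, and each sequence runs 5′ to 3′ on the strand of the gene.
C1qb, chr4:136886151-136886450, minus strand: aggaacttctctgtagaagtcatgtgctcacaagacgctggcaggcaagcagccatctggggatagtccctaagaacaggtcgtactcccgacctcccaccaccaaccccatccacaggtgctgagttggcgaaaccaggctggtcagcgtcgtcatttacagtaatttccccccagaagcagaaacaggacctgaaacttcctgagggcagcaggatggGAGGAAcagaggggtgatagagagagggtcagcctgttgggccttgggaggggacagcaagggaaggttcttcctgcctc
C1qc, chr4:136892865-136893164, minus strand: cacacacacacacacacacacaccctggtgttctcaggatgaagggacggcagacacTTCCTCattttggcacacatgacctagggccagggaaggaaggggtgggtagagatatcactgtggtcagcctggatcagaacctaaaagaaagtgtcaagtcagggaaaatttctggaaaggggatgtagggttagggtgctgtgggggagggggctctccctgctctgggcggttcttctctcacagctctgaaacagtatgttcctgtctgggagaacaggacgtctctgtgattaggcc
Fcna, chr2:25627925-25628224, minus strand: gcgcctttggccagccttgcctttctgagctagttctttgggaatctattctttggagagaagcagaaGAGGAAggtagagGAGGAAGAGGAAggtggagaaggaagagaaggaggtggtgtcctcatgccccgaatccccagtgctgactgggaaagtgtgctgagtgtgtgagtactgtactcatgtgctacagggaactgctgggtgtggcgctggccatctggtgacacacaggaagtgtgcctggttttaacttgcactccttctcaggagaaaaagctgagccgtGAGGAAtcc
Axl, chr7:25788684-25788983, minus strand: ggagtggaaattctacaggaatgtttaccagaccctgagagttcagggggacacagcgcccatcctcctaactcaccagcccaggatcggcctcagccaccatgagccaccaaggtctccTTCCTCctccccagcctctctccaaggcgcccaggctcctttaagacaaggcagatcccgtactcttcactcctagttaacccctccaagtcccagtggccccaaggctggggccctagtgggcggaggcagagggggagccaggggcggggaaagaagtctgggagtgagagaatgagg
C1qb carried 1 match, 30 bases before its start on the strand of the gene. C1qc carried 1 on the opposite strand, 193 bases before the start, and Axl 1 on the opposite strand, 130 bases before. Fcna carried 4, of which 3 lay close together upstream.

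The scavenger and pattern receptors bind modified lipoproteins, sugars and bacterial surfaces. Mrc1, the mannose receptor, was at 609.5, 259 and 424 CPM in naive replicates 1, 2 and 3 and at 2.87, 3.84 and 2.75 CPM after CpG, so that 0.732% of its naive mean remained. Marco, a receptor for bacteria, was at 40.6, 17.3 and 34.8 CPM in the naive samples and at 2.70, 0.48 and 2.43 CPM after CpG, a remainder of 6.05%. Both genes were highest in naive replicate 1 and lowest in replicate 2. Treml4 was at 143, 95.6 and 94.1 CPM and Clec4n, which encodes the fungal receptor Dectin-2, at 78.0, 50.8 and 71.4 CPM in the naive samples, and neither had more than 3 reads in a CpG library. Cd5l, a secreted protein that supports macrophage survival, was nearly equal in the naive samples at 34.1, 30.3 and 31.2 CPM. It had 3, 1 and 11 reads after CpG. Cd14, the lipopolysaccharide co-receptor, was at 19.2, 12.8 and 27.0 CPM, and Siglec1, which binds sialic acid and is better known from marginal metallophilic macrophages, at 13.7, 5.32 and 10.6 CPM. Siglec1 had no read after CpG and Cd14 had 1. Vsig4, the complement receptor CRIg and the only X-linked gene of the set, had no read on either allele in any of the 6 samples. Only reads placed on 1 strain were counted, so a count of 0 does not show that the gene was not expressed.

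The receptors for dying cells in the set are Axl, Mertk and Timd4. Axl, a receptor kinase that recognises phosphatidylserine through the bridging ligand GAS6, was at 739.6, 378 and 474 CPM in naive replicates 1, 2 and 3 and at 0.337, 0.16 and 0 CPM after CpG, at least 1081-fold lower. Mertk, a kinase of the same family, was at 77.6, 43.2 and 42.7 CPM and at most at 0.320 CPM after CpG. Timd4, which binds phosphatidylserine directly, was at 81.0, 37.2 and 50.3 CPM in the naive samples. Unlike Axl and Mertk it was not at the floor after CpG, with 9, 4 and 7 reads, or 1.95% of its naive mean.

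Genes of iron, heme and lipid handling were less uniform. Hmox1, the enzyme that opens the heme ring, was at 1039.7, 507 and 393 CPM in naive replicates 1, 2 and 3 and at 24.3, 16.8 and 22.3 CPM after CpG, a remainder of 3.27%. Slc40a1, ferroportin, the only known cellular iron exporter, was at 806, 548 and 432 CPM and had 4, 2 and 1 reads left, or 0.0648% of its naive mean. Of these 2 genes of heme iron recycling, the enzyme thus kept 105 to 144 reads in each CpG library and the exporter 1 to 4. Cd163, the receptor for hemoglobin bound to haptoglobin, was at 175, 100.3 and 155 CPM and had 1 read over the CpG libraries. Trf, transferrin, was at 146, 76.3 and 67.8 CPM and had 0, 1 and 7 reads after CpG. In its summed level Apoe, the apolipoprotein, ran against the rest of the set. It was lowest in naive replicate 1 at 65.9 CPM, then 88.3 in replicate 2 and 174 in replicate 3. Only its 129 reads had that order, at 182, 387 and 693. Its Cast reads, at 151, 61 and 82, were highest in replicate 1, as in most of the set. After CpG Apoe was at 1.01, 1.92 and 4.86 CPM, in the same order of numbers as its summed level in the naive samples.

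Fc and inhibitory receptors tune phagocytosis of antibody-coated targets. Sirpa, the receptor for the CD47 signal that spares healthy cells, was at 259, 245 and 184 CPM in naive replicates 1, 2 and 3 and at 3.20, 7.36 and 3.72 CPM after CpG. Cd300a, an inhibitory receptor for phosphatidylserine, was at 200.1, 107 and 128 CPM and had at most 2 reads in a CpG library. Fcgr4, an activating receptor for IgG, was low, at 11.7, 2.56 and 10.6 CPM, and had 4, 3 and 4 reads after CpG. Fcgr1, the high-affinity receptor for IgG, had 17, 11 and 10 naive reads and none after CpG.

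The lineage genes include the receptor and the factors on which these cells depend. Csf1r, the receptor for CSF1 and IL-34, was at 691, 316 and 391 CPM in naive replicates 1, 2 and 3 and at 0.169, 0.480 and 0.324 CPM after CpG, at least 950.4-fold lower. Spic, the transcription factor that red pulp macrophages require, was at 191, 174 and 101 CPM and had 5, 4 and 7 reads after CpG. Maf, a factor of mature macrophages, was at 66.9, 28.2 and 44.5 CPM and had 1 read over the CpG libraries. Adgre1, which encodes F4/80, was at 144, 75.3 and 97.3 CPM in the naive samples and at 3.37, 2.72 and 3.24 CPM after CpG. F4/80 therefore left 2.95% of its naive mean, with 20, 17 and 20 reads, where Csf1r left 1, 3 and 2 reads.

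Vcam1, an adhesion molecule that marks red pulp macrophages and also stromal cells, was at 852, 268 and 585 CPM in naive replicates 1, 2 and 3 and had at most 2 reads in a CpG library, at least 1158-fold lower. Itgad, the integrin alpha D chain, was counted on the Cast allele only, with 731, 694 and 361 naive reads and 0, 2 and 0 after CpG.

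Among lysosomal and effector genes the remainder after CpG was largest. Ctsb, the protease cathepsin B, was at 2268, 1149 and 1499 CPM in naive replicates 1, 2 and 3 and at 151, 173 and 153 CPM after CpG, a remainder of 9.70%. Mpeg1, the pore-forming protein perforin-2, was at 525, 314 and 359 CPM and at 72.5, 81.1 and 65.6 CPM after CpG, a remainder of 18.3%. Both genes were lowest in naive replicate 2 and highest in CpG replicate 2. Hpgd, the enzyme that degrades prostaglandins, was at 72.9, 36.8 and 55.0 CPM and had no read after CpG. Cd68, a lysosomal glycoprotein, had 8, 5 and 3 naive reads and 2, 1 and 1 after CpG, too few to set a level.

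The levels of most of the genes differed between the naive samples in the same order. Of the 30 genes with a mean of at least 20 naive reads, 28 were highest in replicate 1, against 29.7% of the 9222 genes with as many reads. The order replicate 1, then 3, then 2 was seen in 21 of the 30, against 14.8%. The exceptions to replicate 1 were Cd14 and Apoe, both highest in replicate 3. The order 1, 2, 3 was that of 7 genes, Hmox1, Slc40a1, Trf, Spic, Treml4, Mertk and Sirpa. On the 129 reads alone replicate 1 was highest for 24 of the 30 genes, on the Cast reads alone for 26, and on both alleles for 20. The share over all genes was not computed for single alleles, so nothing is read from these allele counts.

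The ratio of naive replicate 1 to replicate 2 had a median of 1.94 over the 30 genes, from 0.747 for Apoe to 4.56 for Fcgr4, which had 13 reads in replicate 2. Over all genes the median was 0.969, with 1.70 as the 95th percentile. The 9 B cell genes had a median of 0.821, and their summed level was highest in replicate 2, where the macrophage genes were lowest. The coefficient of variation over the naive samples had a median of 36.4% for the macrophage genes, 12.9% for the B cell genes and 12.6% for all genes. Part of the set moved less. Cd5l had a ratio of 1.12, Sirpa of 1.05 and Spic of 1.10, while Vcam1 had 3.18 and C1qb 2.60. The part that the cell makeup of each sample takes in these differences was not tested.

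**Figure D2:**
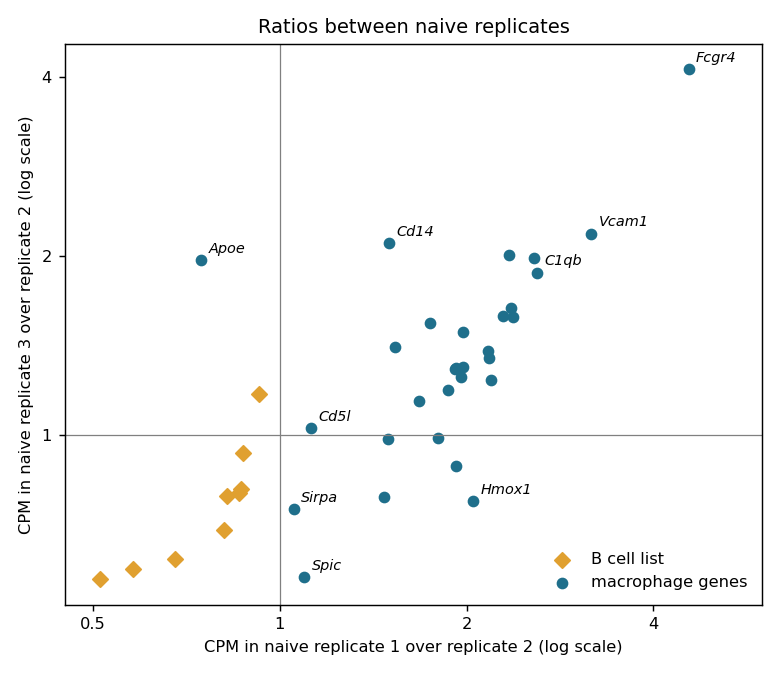
Level in naive replicate 1 (x axis) and in naive replicate 3 (y axis), each divided by the level in naive replicate 2, on log axes, for the 30 macrophage genes with a mean of at least 20 naive reads and the 9 genes of the B cell list. The macrophage genes lie right of 1 on the x axis except Apoe, and the B cell genes lie left of 1.

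The parental alleles were compared in the naive samples, where the set has enough reads. The Cast share of a gene is the percentage of its strain-placed reads that were placed on Cast, and over all autosomal genes it was 51.9% to 53.5% in the naive samples. Of 30 macrophage genes tested with edgeR, 9 had an unequal allele ratio at an adjusted p under 0.05, against 24.5% of the 9290 genes tested. Toward 129 there were 7, against 11% of all genes tested, and toward Cast 2, against 13.5%. The median log2 Cast-to-129 ratio was -0.02 over the 30 genes and 0.11 over all genes.

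Clec4n was read almost only from the 129 allele. Its Cast share was 1.78%, 3.10% and 2.83% in naive replicates 1, 2 and 3 (387, 250 and 309 reads from 129 against 7, 8 and 9 from Cast), a log2 ratio of -5.26 ± 0.21 (SE, edgeR adjusted p = 0.00029). Trf had Cast shares of 17.97%, 15.0% and 16.2%, a log2 ratio of -2.35 ± 0.11 (SE, edgeR adjusted p = 0.00041). Fcna had 27.9%, 30.4% and 27.4%, a log2 ratio of -1.32 ± 0.07 (SE, edgeR adjusted p = 0.00061). In each of these genes the 3 naive shares lay close together although replicate 1 had the most reads. Adgre1 had 26.4%, 32.2% and 27.2%, a log2 ratio of -1.33 ± 0.12 (SE, edgeR adjusted p = 0.0022).

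The other calls were small in size. Cd300a (log2 ratio -0.39), Hmox1 (-0.31) and Cd163 (-0.30) leaned toward 129, and Mpeg1 (0.58) and Ctsb (0.39) toward Cast. None of these 5 was called by DESeq2, which called Clec4n, Trf, Fcna, Adgre1 and Apoe (for Apoe, DESeq2 adjusted p = 0.0047, edgeR adjusted p = 0.17). Without naive replicate 2 the edgeR fit called 5 of the set, Clec4n, Trf, Fcna, Adgre1 and Ctsb, and 1280 genes in all, against 2276. The C1q genes were close to balance, with mean Cast shares of 47.2% ± 0.532 for C1qa, 51.6% ± 1.15 for C1qb and 46.5% ± 4.27 for C1qc (SD, n = 3). Axl, at 52.3% ± 1.00 (SD, n = 3), was near balance as well, and none of these 4 passed the test.

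**Figure D3:**
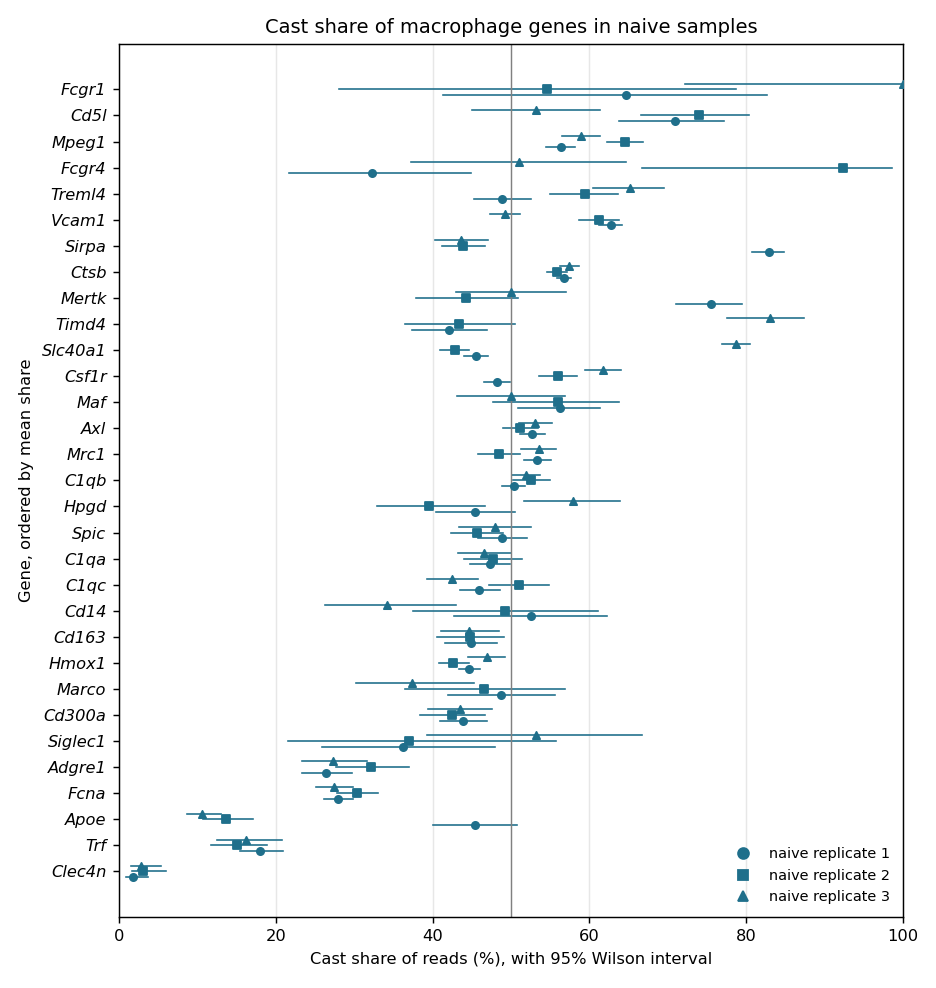
Cast share of the reads of each macrophage gene in the 3 naive samples, as a percentage with its 95% Wilson interval, which covers counting error only. Genes are ordered by their mean share, for those with at least 10 reads in every naive sample, and Clec4n lies lowest near 2% while Sirpa, Mertk, Timd4, Slc40a1 and Apoe each have 1 sample far from the other 2.

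In some genes the share differed between the naive samples. Of the 26 autosomal macrophage genes with at least 100 reads in each naive sample, 6 had shares that spanned at least 20 points, namely Cd5l, Mertk, Timd4, Slc40a1, Apoe and Sirpa, against 10.5% of the 5628 autosomal genes with as many reads. The median span was 6.02 points for the 26 genes and 6.45 points for all such genes. Cd5l lay just inside the limit at 20.8 points and Hpgd just outside it at 18.4 points. In each of the 6 genes the 95% Wilson intervals of the highest and the lowest sample did not overlap.

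Slc40a1 had Cast shares of 45.5%, 42.8% and 78.8% in naive replicates 1, 2 and 3. The 129 reads were 2219, 1590 and 408, and the Cast reads 1851, 1191 and 1514, so the 129 allele alone set replicate 3 apart. Timd4 showed the same pattern on a lower count, with 237, 107 and 38 reads from 129 and 172, 82 and 186 from Cast. Sirpa stood apart in replicate 1 instead, with Cast shares of 82.9%, 43.9% and 43.7%. Its 129 reads were 224, 698 and 462 and its Cast reads 1083, 547 and 358. Mertk, on chromosome 2 as Sirpa is, was also apart in replicate 1, at 75.5%, 44.3% and 50%, with 296, 97 and 95 reads from Cast. Apoe had 45.3%, 13.6% and 10.6%, the 129 reads being 182, 387 and 693 and the Cast reads 151, 61 and 82. In Apoe the sample with the lowest total was therefore the one with the most even alleles. Cd5l had 70.9%, 74.0% and 53.2%.

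The 10 nearest genes that had 50 or more reads in each sample were read beside each of these genes. The farthest of them lay from 0.314 Mb (Apoe) to 6.01 Mb (Slc40a1) away. Around Slc40a1 their median Cast share was 50.4%, 49.3% and 53.8% in replicates 1, 2 and 3, a span of 4.50 points against 35.9 for Slc40a1. Around Timd4 the median share spanned 2.09 points, against 41.0 for Timd4, and around Sirpa 3.10 points, against 39.2. Around Apoe the neighbours moved in the opposite direction, with medians of 45.3%, 63.8% and 65.6%. Around Mertk they spanned 7.49 points and around Cd5l 8.41 points. Mertk and Sirpa, both apart toward Cast in replicate 1, had Slc20a1, Polr1b, Tmem87b and Anapc1 as neighbours in common. They are therefore not separate regions. The cell type behind the reads of the neighbours is not known. Whether alleles shift together over a region in the cells that express the set was not tested.

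**Figure D4:**
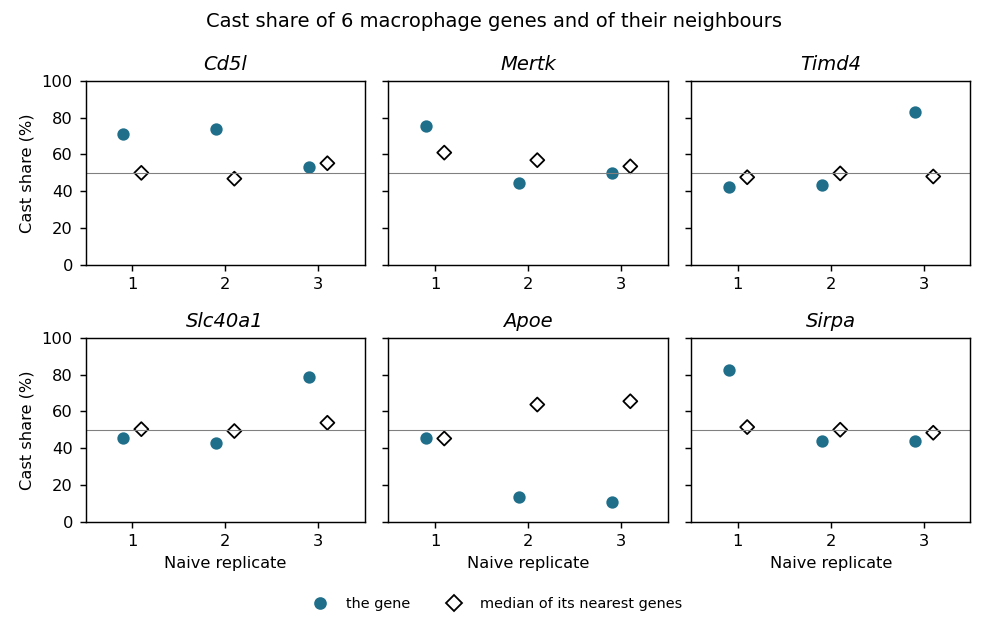
Cast share in naive replicates 1, 2 and 3 of the 6 macrophage genes whose share spans at least 20 points (filled circles) and the median share of the 10 nearest genes (open diamonds), in percent. The neighbours of Timd4, Slc40a1 and Sirpa stay near 50% in all 3 samples, and those of Apoe move away from Apoe.

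Few of the genes kept enough reads after CpG for a share. At least 10 reads in every CpG sample were left for 6 genes, Mrc1, Sirpa, Hmox1, Adgre1, Ctsb and Mpeg1. The reads of all 32 autosomal members pooled had a Cast share of 50.6%, 48.7% and 51.4% in the naive samples, a mean of 50.2% ± 1.38, and of 61.3%, 57.3% and 56.1% after CpG, a mean of 58.2% ± 2.74 (SD, n = 3 each). The difference was 7.97 points, and every CpG sample was above every naive sample. Ctsb and Mpeg1, both leaning toward Cast, held most of the reads after CpG. Over the 6 genes just named the pooled difference was 5.23 points, and with each of those genes weighing the same it was 1.41 points. Over all autosomal members without Ctsb the pooled difference was 13.5 points.

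Whether the allele ratio differed between CpG and naive samples was tested gene by gene with edgeR. The main fit had no term for replicate number. Of 30 macrophage genes in it 2 were called, against 0.95% of the 9995 genes, of which 95 were called. Same-numbered naive and CpG samples deviated together, and with an allele term for each replicate number 5 of the 30 were called, against 7.62% of all genes (762 genes). Without that term, leaving out any 1 of the 6 libraries left 14 to 26 genes called in all and 0 or 1 of the set.

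Adgre1 was one of the 2. Its Cast share was 26.4%, 32.2% and 27.2% in the naive samples and 55%, 58.8% and 50% after CpG, where it had 9, 7 and 10 reads from 129 and 11, 10 and 10 from Cast. The log2 ratio changed by 1.58 ± 0.25 (SE, edgeR adjusted p = 0.040), and all 3 CpG samples were above all 3 naive samples. With the block the edgeR adjusted p was 0.0079. It was above 0.05 when any 1 library was left out, reaching 0.18 without naive replicate 1, and DESeq2 gave an adjusted p of 0.079. Trf was the other, its ratio higher by 6.65 ± 0.62 on the log2 scale (SE, edgeR adjusted p = 0.023), but after CpG it had 0, 1 and 7 reads, all from Cast. Without CpG replicate 3 the edgeR adjusted p for Trf was 0.55, and over its alternatives the adjusted p ran from 0.00015 to 0.55.

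With the block Mpeg1, Sirpa and Timd4 were called as well. Mpeg1 had Cast shares of 56.4%, 64.6% and 58.9% in the naive samples and 76.0%, 65.7% and 71.1% after CpG, a log2 change of 0.71 (edgeR adjusted p = 0.23 without and 0.019 with the block). Sirpa had 78.9%, 17.4% and 21.7% after CpG, so that replicate 1 was the high one in both groups and the share was lower after CpG in each number (edgeR adjusted p = 0.86 without and 0.0069 with the block). Timd4 had no 129 read and 9, 4 and 7 Cast reads after CpG (edgeR adjusted p = 0.62 without and 0.00074 with the block). Ctsb, with the most reads, had 56.7%, 55.9% and 57.5% in the naive samples and 56.7%, 56.6% and 52.4% after CpG, and did not pass the test. Mrc1 had 53.4%, 48.4% and 53.5% against 35.3%, 37.5% and 41.2%, on 17 to 24 reads after CpG, and did not pass either (edgeR adjusted p = 0.34).

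Genes of the same pathways that are not in the set were taken from lists and tested for naive against CpG on the summed alleles, where 34.3% of 10317 genes were called higher and 34.5% lower after CpG. Of 25 other macrophage genes matched, 16 passed the filter on low counts, and of these 15 fell and 1 rose, with a median log2 change of -6.92, against -0.01 over all genes tested. With the 9 genes that had at most 3 reads in every CpG library set to that floor, the median was -4.89. Those 9 genes could pass the filter only through the naive samples, so the count and the medians do not describe the whole list. Slco2b1, an organic anion transporter, was at 67.3, 21.5 and 30.1 CPM in the naive samples and had no read after CpG, at least 80.8-fold lower. Igf1 was at 40.8, 35.1 and 24.3 CPM and Pparg at 13.9, 8.28 and 6.06 CPM, each with at most 1 read in any CpG library. All 3 were among the 9 genes with at most 3 reads in every CpG library, so their calls by edgeR are not read as evidence. Cd36, a scavenger receptor that some B cells also express, was the one that rose. Spi1, which encodes PU.1 and is also a B cell gene, fell less, from 51.5, 50.4 and 42.9 CPM to 30.2, 33.4 and 30.8 CPM.

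Of 5 other complement genes 4 fell, with a median log2 change of -2.03 over the 5. C6 and C3 of these, and Havcr2 of the next list, had at most 3 reads in every CpG library. They could pass the filter only through the naive samples, so their calls are not read as evidence. C6, a part of the lytic pore, went from 119, 76.8 and 73.0 CPM to at most 1 read in a library, and C3 from 24.7, 13.4 and 17.7 CPM to 0.324 to 0.480 CPM. Cfp, properdin, went from 176, 96.2 and 130 CPM to 23.6, 53.8 and 18.5 CPM (edgeR adjusted p = 0.0058, and 0.088 with the replicate block), and Cr1l fell by 0.92 on the log2 scale. Of 11 other genes of apoptotic cell uptake 8 fell and 2 rose, with a median log2 change of -1.31. Those that fell most were Havcr2, from 42.8, 20.9 and 31.4 CPM to at most 1 read in a library, Lrp1, from 237, 145 and 140 CPM to at most 1.46 CPM, Itgb5, and Abca1, which had 508.6 ± 54.1 CPM before and 20.3 ± 12.98 CPM after (SD, n = 3). Abca1 was lowest in naive replicate 1, as Apoe was. Lrp1 and Itgb5 had at most 9 reads in a CpG library and could also pass the filter only through the naive samples. Their calls are not read as evidence either, and the count of falls does not describe the whole list.

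Of 13 other iron and heme genes 4 rose, 5 fell and 4 were not called, with a median log2 change of 0.18. Tfrc, the transferrin receptor for iron import, rose from 32.3, 41.6 and 44.2 CPM to 268, 156 and 262 CPM, and Nqo1 rose from a low level. Hfe fell from 63.2, 26.6 and 38.9 CPM to at most 0.800 CPM, and Fth1, the ferritin heavy chain, from 81.2, 77.4 and 90.1 CPM to 24.1, 21.9 and 25.3 CPM. Hfe had at most 5 reads in a CpG library and could pass the filter only through the naive samples. Nqo1 had at most 8 reads in a naive library and could pass it only through the CpG samples. The calls of Hfe and Nqo1 are therefore not read as evidence. Tfrc, of iron import, was thus higher after CpG. Slc40a1 of the set, of iron export, was lower, but this contrast had chosen it. Whether the 2 genes were read in the same cells cannot be told in bulk samples. Of 16 other lysosomal genes 13 fell and 1 rose, with a median log2 change of -1.18, and the largest falls, of Psap, Ctsd, Ctss and Lipa, were of 4.67-fold to 6.39-fold. Of 11 genes of Fc receptor and ITAM signalling 9 fell, with a median of -0.96. Fcgr3 fell by 6.37 and Fcer1g, the shared signalling chain, by 5.15 on the log2 scale, and Fgr by 3.62 and Inpp5d by 1.76, while Fcgr2b, the inhibitory receptor of B cells, was not called. Fcgr3 had 17, 4 and 3 reads and Fcer1g 19, 7 and 33 reads after CpG. Both could pass the filter only with the naive samples, so their calls are not read as evidence.

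**Figure D5:**
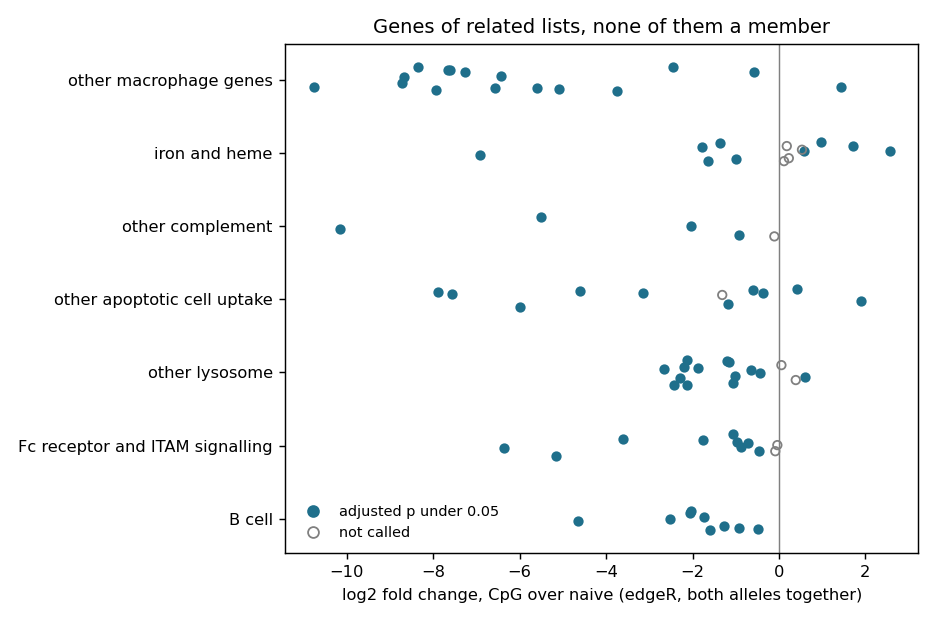
log2 fold change of CpG over naive from edgeR on the summed alleles, 1 point per tested gene, for 6 lists of related genes and the B cell list, filled where the adjusted p is under 0.05. Most of the 16 other macrophage genes lie below -5, a fitted value that is no bound for the 9 of them with at most 3 reads in every CpG library, and the B cell genes lie between -5 and 0.

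X-linked genes show which X chromosome was read, and Vsig4 could not serve for that. Of 10 X-linked myeloid and immune genes, 6 were tested for level and 5 fell. Tlr13, a receptor for bacterial RNA, had 118, 53 and 83 reads from 129 and 5, 0 and 0 from Cast in the naive samples, and none after CpG. It could thus pass the filter only through the naive samples. Tlr7 had Cast shares of 2.50%, 1.36% and 1.24% in the naive samples, on 240, 147 and 161 reads. Msn, read in most leukocytes, had 2.31%, 2.23% and 2.58%. Cfp had 15.0%, 13.9% and 11.6%, and Was 6.85%, 9.52% and 6.30%, with 17.1% to 20.7% after CpG (log2 change of the allele ratio 1.55 ± 0.23, SE, edgeR adjusted p = 0.034). Cybb, a subunit of the phagocyte oxidase that B cells also express, had 26.3%, 24.4% and 4.71% in naive replicates 1, 2 and 3 and 25.5%, 24.3% and 2.76% after CpG. In both groups the low share of Cybb was that of replicate 3. Over all X-linked genes the Cast share was 11.6% to 14.3% in the naive samples. Tlr8, Il13ra1, Cysltr1 and Btk had at most 24 reads in any sample.

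Markers of other cell types were followed beside the set. All 9 matched B cell genes fell after CpG. Those of the other cell types numbered 64 matched of 73, of which 23 had enough reads to test, and 16 of these fell and 3 (Ccr9, Prdm1 and Mzb1) rose. At most 3 reads in every CpG library were left for 4 of 5 tested T cell markers and 2 of 3 erythroid ones. The same held for 1 NK cell, 1 monocyte, 1 dendritic cell and 1 endothelial or stromal marker. These could pass the filter only through the naive samples, so the count of falls does not describe the whole lists. T cell markers (10 of 10 matched) summed to 137, 50.2 and 162 CPM in naive replicates 1, 2 and 3, and to 19.0 to 28.0 CPM after CpG. Most of the naive sums was Il7r, at 83.3, 9.85 and 114 CPM, and Cd4, at 41.2, 21.5 and 29.9 CPM. The sums in the naive samples were 31.5 to 49.6 CPM for neutrophils (9 of 11 matched), 8.53 to 11.0 for monocytes (6 of 7), 30.7 to 52.5 for dendritic cells (8 of 9, Cd209a at 0) and 11.1 to 16.2 for NK cells (6 of 7). After CpG the highest sums were 3.56, 5.23, 20.8 and 4.64 CPM. Erythroid markers (4 of 8 matched, without the globins) went from 31.7 to 62.2 CPM to at most 1.13 CPM, and platelet markers (6 of 6, Pf4 at 0 in the naive samples) stood at no more than 5.17 CPM. Endothelial and stromal markers (10 of 10, Col1a1 at 0 in the naive samples) went from 107 to 172 CPM to 5.73 to 9.44 CPM, most of it in the naive samples Stab2, a scavenger receptor of sinus endothelium that was at 162, 114 and 94.3 CPM before and had at most 3 reads after. Plasma cell markers stood at 204 to 371 CPM before and 441 to 502 CPM after. The part of these cells in the levels of the macrophage genes was not tested.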

How the data were processed

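RNA was measured by stranded total RNA sequencing in 18 samples, of which the 6 of the 129 by Cast cross were used. The other 12 were not analysed here. The deposited values were raw read counts per gene in a 129 and a Cast table per sample (12 tables), made by the authors with STAR, featureCounts and Subread 2.0.0, with mm10 named as a build, per the submitters' processing notes. How reads were assigned to a strain is not given in the sources used here. Gene rows without a usable name held 5.10% to 19.7% of gene reads in a table.

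Genes were matched by name between the 2 tables, which kept 81.5% to 84.9% of gene reads. Counts of both alleles were summed and scaled to counts per 1000000 gene reads (CPM). A fold against libraries with at most 3 reads uses 3 reads per library as the floor. Genes were tested with edgeR 4.0.16 (R 4.3.3; TMM, filterByExpr, robust quasi-likelihood test, Benjamini-Hochberg adjustment, threshold 0.05). In the allele fits both alleles of a sample shared its library size, with sample as a covariate. DESeq2 1.42.0, other scalings and filters, single tables and leaving out each replicate were the alternatives. On simulated counts the level fit recovered 54% of 2-fold and 99% of 4-fold changes (10307 genes), the naive allele fit 54% and 100% (9304 genes) and the fit of allele changes 14% and 77% (9721 genes). The simulated columns were drawn independently, with the same dispersion for all genes and no effect of sample or replicate number. Recovery in the real data can therefore differ from these percentages. Shares have 95% Wilson intervals, which cover counting error only.

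Same-numbered naive and CpG samples correlated in their deviations from the group means, over genes, at 0.189, 0.155 and 0.209 for level and 0.713, 0.628 and 0.715 for Cast share. The numbers were therefore taken to pair the samples, but only in the replicate block, an alternative fit. The main fits of level and of allele change, and those leaving out a replicate, had no term for this pairing. The set and the lists were chosen with earlier results of these data known. All members are accounted for. Of each other list, up to 4 genes are named, those with the largest change among called genes with a mean of at least 20 reads in a group and no overlap, and the X-linked list is given whole. A gene that this rule names is not reported here. Cd36, Spi1, Fcgr2b, Il7r and the markers at 0 were named after their values were seen. The pooled Cast share is given without a test.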

Additional observations from a re-analysis of the deposited data

Results flagged for a closer look

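For 2 macrophage genes the ratio of Cast to 129 reads was called different between naive and CpG samples, and neither call held under all alternatives. For Adgre1 the log2 change of the ratio was 1.58, on 17 to 20 reads in each CpG sample. Its edgeR adjusted p was 0.040, and 0.085 to 0.18 when any 1 library was left out, with 0.079 under DESeq2. For Trf the change was 6.65, on 8 reads over the CpG samples. Its edgeR adjusted p was 0.023, and 0.55 without CpG replicate 3. With the replicate block 5 of the 30 genes tested were called, these 2 with Mpeg1, Sirpa and Timd4.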

How the results depend on the processing

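The ratio of the summed level of the set, 29.6, ran from 23.8 to 35.6 over all alternatives, and the count of genes with replicate 1 highest from 24 to 28. Genes called for unequal naive alleles numbered 1280 (without naive replicate 2) to 1770 when a replicate was left out, against 2276. Members called numbered 5 to 8 when a replicate was left out and 5 under DESeq2, against 9. The share of all genes that DESeq2 called is not given here, so nothing is read from its 5. For the change of the allele ratio, leaving out a replicate gave 14 to 26 genes and 0 to 1 members, DESeq2 gave 150 genes and 1 member, and the replicate block 762 genes and 5 members. The pooled share difference was 1.41 points as a mean of genes, 13.5 without Ctsb and, chosen after seeing the data, 5.23 over the 6 genes with most reads. Paired by number, it was 7.97 points.

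Counts of listed genes moved as follows. With no filter, 0 other macrophage genes (Cd36 lost its call), 2 lysosomal and 1 X-linked gene rose, and 31 markers of other cell types fell. With at least 20 reads in 3 samples 8 such markers fell, with the 129 tables alone 10, and with the Cast tables alone 9. With the 129 tables alone 2 iron and heme genes rose. With the Cast tables alone 1 X-linked gene rose and 2 fell, Was being reversed at 0.96 (edgeR adjusted p = 0.010). Lysosomal genes that rose numbered 2 with the replicate block and 1 to 2 when a replicate was left out. With and without the block 6999 genes of the level fit were shared, and of the listed genes Cfp, Grn, Itgb3 and Was changed call. The cause of these changes was not tested.

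The CpG libraries were the deeper ones, yet 18 of the 32 genes with naive reads had at most 3 reads in each of them, too few for a Cast share.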
